A study of Mus musculus with 12 samples.

Results

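The deposited list of H3K27me3 sites held 101389 regions, and 3666 of them (3.62%) were of intermediate width and lay between genes but close to one. These mid-width intergenic sites were chosen by their measured width, from 3000 bp to under 10000 bp, and by position: the midpoint was in no annotated gene, over 3 kb from every annotated transcription start site (TSS) and within 100 kb of the TSS of a protein-coding gene, on chromosomes 1 to 19. Trimethylation of lysine 27 of histone H3 was mapped by ChIP-seq in iMEF cells, an immortalized line of mouse embryo fibroblasts, in which both untreated and treated cells had lost exon 4 of their floxed Ash2l alleles and lived on a lentiviral human ASH2L fused to FKBP12F36V, in a single clone, NG3. The compound dTAG-13 brings the fusion protein to degradation, and the 8 H3K27me3 libraries came from untreated cells and from cells exposed for 16 h, 24 h and 48 h, with 2 libraries per group. The 4 input libraries were made from untreated cells and from cells after 48 h, again 2 each. Only 1 list of positions was analysed here, pooled over these libraries and holding chromosome, start and end, so that no width, level or presence is given per library and no spread between replicates can be computed. The study also lists sites that changed with treatment, which were not analysed here, and untreated and treated cells are not compared.

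H3K27me3 is placed by Polycomb repressive complex 2 and marks genes kept silent, above all developmental regulators that belong to other lineages. It can form broad domains over such genes and the DNA around them, while CpG-rich DNA, in particular unmethylated CpG islands, is where Polycomb complexes are often recruited. ASH2L belongs to the core of the COMPASS/KMT2 complexes, which methylate lysine 4 of the same histone at promoters and enhancers.

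The selection ran through 96090 sites on chromosomes 1 to 19, of which 11179 were in this range of width. In 5411 of these the midpoint lay in no gene, in 4502 it was also over 3 kb from every TSS, and 3666 met the last condition. At the limits of the rule the narrowest member, near Dapk1, measured 3000 bp and the widest site just excluded, near Atp9b, 2999 bp. The widest member, near Synm, measured 9998 bp and the narrowest site above the limit, near Ntsr2, 10010 bp. The member closest to any TSS, near Trak1, was 3003 bp from it, where the first one excluded, near H2-Q7, was at 2998 bp, and the member farthest from a protein-coding TSS, near Gm525, was at 99961 bp, where the first one excluded, near Gpat3, was at 100088 bp.

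Sequences of 3 members show the most CpG-rich stretches and, for comparison, the centre of a member of about median GC content. Each is a stretch of 300 bases of the forward strand of GRCm38.p6 (mm10), written 5′ to 3′ with every CpG in capitals. The first 2 are the windows with the most CpGs among all members, 51 each. One lies in the member chr1:78215642-78221764, 21569 bp upstream of Pax3, which encodes a factor of neural crest and muscle precursors, and the other in chr7:137320322-137325585, 8509 bp upstream of the transcription factor gene Ebf3. Neither window overlaps an annotated gene. The windows next in rank, with 50 and 46 CpGs, overlap the genes Ttc9 and Lrrc10b, into which their members reach, and are not printed.

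Pax3 upstream, chr1:78217036-78217335: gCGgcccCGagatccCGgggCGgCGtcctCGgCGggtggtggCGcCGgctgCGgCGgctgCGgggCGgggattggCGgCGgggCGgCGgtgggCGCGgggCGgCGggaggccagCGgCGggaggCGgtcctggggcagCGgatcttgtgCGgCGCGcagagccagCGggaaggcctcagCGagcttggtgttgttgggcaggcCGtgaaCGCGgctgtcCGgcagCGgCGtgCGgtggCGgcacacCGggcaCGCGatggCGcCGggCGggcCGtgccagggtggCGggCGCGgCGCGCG
Ebf3 upstream, chr7:137322579-137322878: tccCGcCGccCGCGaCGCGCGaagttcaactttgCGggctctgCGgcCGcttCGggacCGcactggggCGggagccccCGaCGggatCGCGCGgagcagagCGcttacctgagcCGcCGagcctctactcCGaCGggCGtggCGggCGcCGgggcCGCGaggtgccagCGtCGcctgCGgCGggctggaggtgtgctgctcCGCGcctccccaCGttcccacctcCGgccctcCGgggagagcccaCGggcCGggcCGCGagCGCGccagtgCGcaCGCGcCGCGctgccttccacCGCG

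The other is the central stretch of a member whose GC content was among the nearest to the median. It lies beyond the 3′ end of Dnmt3a, a DNA methyltransferase gene, and holds 7 CpGs. The distance of 17760 bp is to the nearest annotated TSS of that gene, which need not be at its 5′ end.

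Dnmt3a downstream, chr12:3924426-3924725: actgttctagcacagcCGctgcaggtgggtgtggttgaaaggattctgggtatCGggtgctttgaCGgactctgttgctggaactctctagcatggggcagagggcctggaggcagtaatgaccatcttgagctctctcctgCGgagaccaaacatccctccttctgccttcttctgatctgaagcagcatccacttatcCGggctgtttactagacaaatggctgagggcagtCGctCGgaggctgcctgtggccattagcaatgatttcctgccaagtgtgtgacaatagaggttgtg

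Most members were closer to the last of these. The window of 300 bases with the most CpGs held a median of 9 of them (quartiles 7 and 11), and 299 members (8.16%) had a window with 15 or more. That share was 8.25% in the 836 sites of the same width that lay over 100 kb from a protein-coding TSS, and 9.16% in the 3481 that lay in genes.

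Together the members covered 18.4 Mb, 10.97% of the 167.4 Mb in all listed sites on these chromosomes. They were 11.1% of the 33029 sites of any width in the same intergenic space and held 34.6% of the bases of those sites. Widths were skewed to the low end of the range that chose them: 1367 members (37.3%) measured under 4000 bp and 129 (3.52%) at least 9000 bp, with a median of 4486 bp. The edge of 239 members (6.52%) reached into a gene, and 57 came within 1 kb of a TSS of the nearest gene. For reference, the 28751 sites under 3000 bp in the same space are called narrower sites, and positions every 1 kb that met the positional conditions, 495100 in all, are called eligible positions. All comparisons with these sets are descriptions without a test, and the 95% intervals given cover counting error only, since members that share a gene or a domain are not independent.

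The nearest protein-coding TSS was a median of 22955.5 bp from the midpoint of a member (95% interval 22139 to 24134). The median was 26876 bp for narrower sites and 29819.5 bp for eligible positions, both longer than that of members. Intergenic sites of 10000 bp or more in the same space had a median of 21896 bp (19622 to 24388), so the members were not the closest. Of the members, 808 (22.0%) were within 10 kb of the TSS, 1338 (36.5%) at 10 to 30 kb and 1520 (41.5%) farther out. The nearest TSS of any kind was a median of 13854 bp away and belonged to a protein-coding gene for 2027 members (55.3%), to a long non-coding RNA for 711 (19.4%) and to a pseudogene for 552 (15.1%). The midpoint was on the upstream side of the nearest protein-coding TSS in 2536 members, 69.2% (67.7 to 70.7). Because gene bodies were excluded, most of the eligible space is also upstream, 66.4% of positions, and narrower sites gave 70.3%. The upstream share was 86.3% in the closest distance class and 57.8% in the farthest, where eligible positions gave 78.3% and 60.7%. Narrower sites were close to members, with 86.3% and 59.9%.

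**Figure D1:**
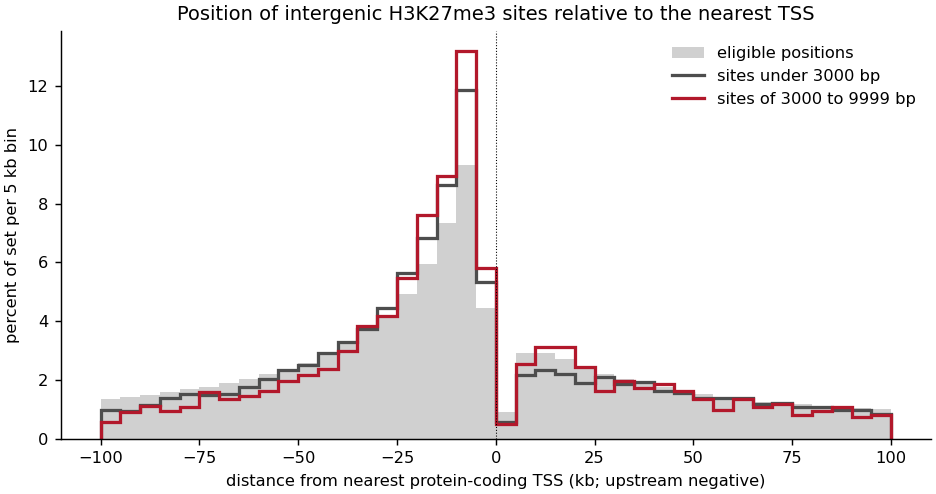
Signed distance from the nearest protein-coding TSS in kb (x axis, upstream negative) against the percent of each set per bin of 5 kb (y axis), for the mid-width intergenic sites (red), narrower intergenic sites (dark grey) and eligible positions (filled, light grey). All 3 sets peak upstream of the TSS, where gene bodies do not remove space, and the red line is the highest in the bins closest to the TSS on that side.

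The gene nearest to a member often carried H3K27me3 at its own promoter. A promoter site was any other listed site within 1 kb of a TSS of that gene, and 2204 members, 60.1% (58.5 to 61.7), had one at the nearest gene. The share was 51.9% for narrower sites, 43.1% for mid-width sites over 100 kb from a protein-coding TSS, 78.3% for mid-width sites in genes and 30.8% for eligible positions. Over all genes with a protein-coding transcript, 5384 of 20722 (25.98%) had a promoter site. A promoter site of 10000 bp or more was present at the nearest gene of 24.5% of members (23.2 to 25.9), against 13.9% of narrower sites and 6.39% of positions, but 31.0% of broad intergenic sites and 32.6% of mid-width sites in genes. On 18 of 19 chromosomes the promoter share was higher for members than for narrower sites, and it ranged from 47.7% on chromosome 8 to 72.7% on chromosome 10.

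Sites of 10000 bp or more, here called broad sites, numbered 2350 on chromosomes 1 to 19. The distance from the edge of a member to the nearest broad site had a median of 56787.5 bp (51086 to 64930). The median was 253500 bp for narrower sites, 231620.5 bp for mid-width sites far from protein-coding genes and 51774 bp for mid-width sites in genes. Eligible positions were measured as single points, without the width that brings the edge of a site closer. Their median was 1067829 bp when a position inside a broad site counted as 0, and 1132340.5 bp over those outside broad sites. Members thus lay nearer to broad sites than narrower sites in the same intergenic space, and this held in the median on 19 of 19 chromosomes, while mid-width sites in genes gave nearly the same distance as members.

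In 300 members (8.18%) the broad site was within 1 kb, in 890 (24.3%, 22.9 to 25.7) within 10 kb and in 2133 (58.2%) within 100 kb, whereas 405 (11.05%) had none within 1 Mb. These values rest on the limit of 10000 bp: with broad sites from 20000 bp, the median distance was 635044.5 bp and 7.01% of members were within 10 kb of one. At the limit of 10000 bp, the 4 shares of narrower sites were 2.33%, 9.16%, 35.1% and 24.6%. Within 10 kb of a broad site lay 2.69% of the eligible positions outside broad sites, measured from a point and not from an edge. From the side of the broad sites, each member was counted only at its nearest one. In this count, 698 of 2350 (29.7%) were the nearest broad site of a member within 10 kb. Of these, 538 had 1 such member and 160 at least 2, with 4 as the highest number.

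**Figure D2:**
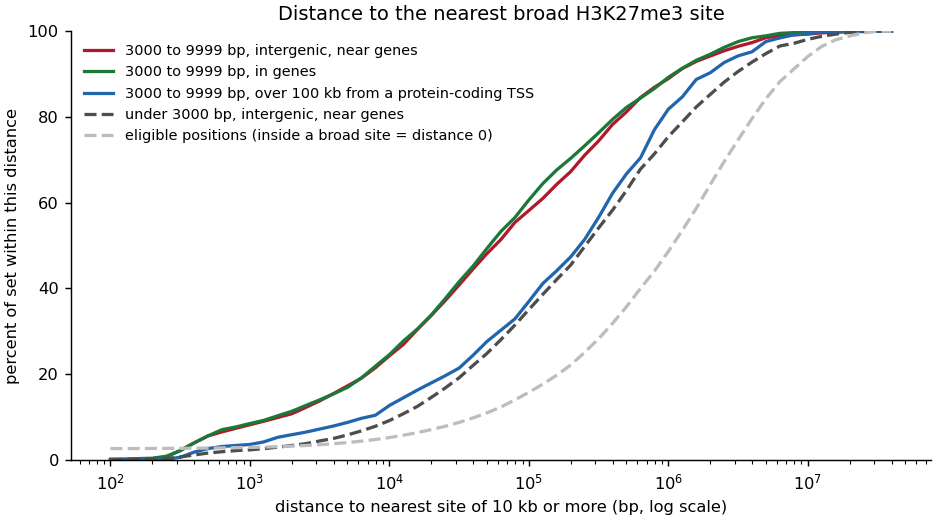
Cumulative percent of each set (y axis) within a given distance in bp of the nearest site of 10 kb or more (x axis, log scale), for mid-width intergenic sites near genes (red), mid-width sites in genes (green), mid-width sites over 100 kb from a protein-coding TSS (blue), narrower intergenic sites (dashed dark grey) and eligible positions (dashed light grey). The red and green lines run together, with 58.2% and 60.6% of sites within 100 kb, and the blue and dark grey lines lie below them at 37.0% and 35.1%.

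Where a broad site lay within 10 kb, it overlapped the gene nearest to the member in 377 of 890 cases (42.4%, 39.2 to 45.6) and was on the TSS side of the member in 552 (62.0%, 58.8 to 65.2). Over all members, the nearest broad site overlapped the nearest gene in 746 (20.3%) and was on the TSS side in 2004 (54.7%).

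The promoter share was higher close to broad sites. It was 80.3% for members within 1 kb of one, 73.9% at 1 to 10 kb, 65.6% at 10 to 100 kb, 45.7% at 100 kb to 1 Mb and 48.4% beyond. Narrower sites in the same classes gave 79.3%, 75.9%, 65.0%, 42.8% and 43.8%, so that within a distance class the 2 width groups differed by less than 5 percentage points, where over all classes they differed by more. Eligible positions gave 78.5%, 75.4%, 57.6%, 27.8% and 22.5%. The first of these values is not comparable with that of the sites, because most positions in that class lie inside a broad site. In all 3 sets the broad site that sets the distance class can itself be the promoter site, so the high values close to broad sites are partly built into the definition. Beyond 10 kb both kinds of site had higher values than positions. Width also varied along this axis. Members within 1 kb of a broad site had a median width of 5312 bp, and those over 1 Mb from one 4093 bp.

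**Figure D3:**
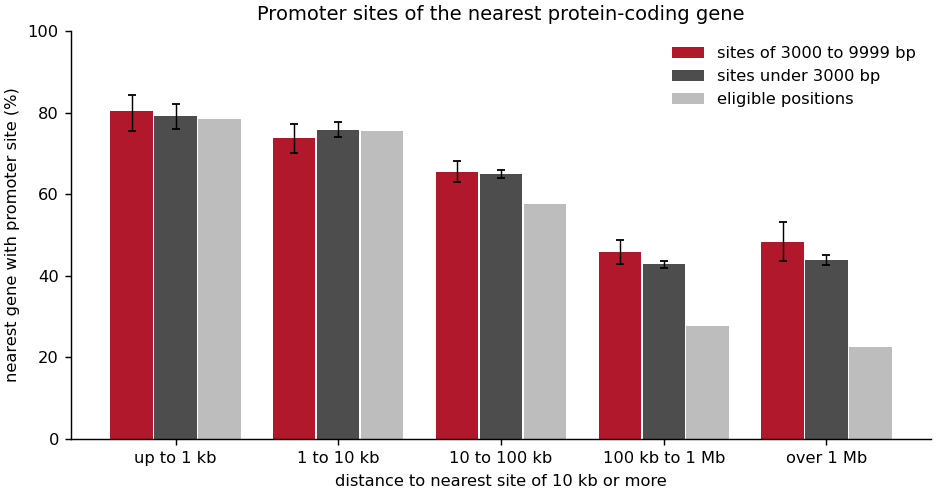
Percent of sites or positions whose nearest protein-coding gene has a listed site at its promoter (y axis), by distance to the nearest site of 10 kb or more (x axis), for mid-width intergenic sites (red), narrower intergenic sites (dark grey) and eligible positions (light grey). Error bars are 95% Wilson intervals of the sites; red bars go from 80.3% to 48.4% and dark grey bars from 79.3% to 43.8%, and the first light grey bar includes positions inside broad sites.

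Members seldom stood alone. The nearest listed site of any width was a median of 408 bp away (400 to 417), and 2996 members (81.7%) had one within 1 kb, against 70.7% of narrower sites. In the other classes the share was 81.8% for mid-width sites far from protein-coding genes, 82.6% for mid-width sites in genes and 88.2% for broad intergenic sites. After linking sites with gaps under 1000 bp into chains, 670 members (18.3%) formed no chain, 1807 (49.3%) were in chains of 2 to 4 sites and 1189 (32.4%) in chains of 5 or more. A chain with a broad site in it held 624 members (17.02%). There were 3046 chains with a member, counting single sites, and 1227 of them (40.3%) spanned 10000 bp or more from end to end, up to 264125 bp. How the short gaps arose in peak calling was not tested.

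The 3666 members fell into 1947 intergenic intervals between neighbouring genes. In 1159 intervals (59.5%) there was 1 member, in 656 (33.7%) 2 to 4, and in 132 (6.78%) 5 or more, and these 132 held 827 members (22.6%). The interval between Gm525 and Nog on chromosome 11 had the most, 14, whose summed width was 37.0% of its 207597 bp. Such sums count members whole, with any part that reached into a flanking gene. Between Msx1 and Stx18 there were 11. Between Cytl1 and Msx1, on the other side of Msx1, there were 9. Their summed width was 66.4% of 80664 bp, although the outermost of them ran past the Cytl1 end of the interval. Further intervals with 11 were Zbtb40 to Wnt4, Anxa2 to Foxb1 and Mphosph6 to Cdh13. The last of these spans 481789 bp, and the summed width of its members was 10.1% of that. Flanking genes were transcribed away from each other for 1194 members (32.6%), towards each other for 607 (16.6%) and in the same direction for 1865 (50.9%).

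Protein-coding genes named as nearest numbered 2162 (10.4% of 20780). Of these, 1363 had 1 member, 711 had 2 to 4 and 88 had 5 or more, and the last group accounted for 527 members (14.4%). The genes with the most were Zfp536, a zinc-finger repressor of neuronal differentiation, with 12, Bmp2, a bone morphogenetic protein, with 10, Cxcr4, the chemokine receptor for Cxcl12, with 10, and Msx1, a homeobox gene of craniofacial and limb development, with 9. Smim23, Cd83, an immunoglobulin-family surface protein, and Nog, the BMP antagonist noggin, also had 9 each, and Rtl6, the forkhead gene Foxi2 and Mphosph6 had 8 each. A promoter site was present at 8 of these 10 genes and was not listed at Rtl6 and Mphosph6.

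At Msx1 (chromosome 5, 37820485 to 37824583, reverse strand) 3 members lay downstream of the TSS, at 8819, 25558 and 41374 bp, and 6 upstream, at 3195 to 94948 bp. Their widths ran from 3430 to 8870 bp, and 2 of them, the closest on each side, overlapped a CpG island. The nearest broad site was 501 bp from the closest upstream member. At Bmp2 (chromosome 2, 133552159 to 133562885, forward strand) 3 members were upstream, at 9246, 17901 and 43041 bp, and 7 downstream, at 40540 to 98269 bp, beyond the end of the gene. No broad site was within 70437 bp of any of these 10, although the promoter carried a site under 10000 bp. Cxcr4 (chromosome 1, 128588199 to 128592293, reverse strand) had 8 members upstream, at 12259 to 96591 bp, none wider than 5988 bp, and 2 downstream, and a broad site was listed at its promoter.

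At Nog (chromosome 11, 89300638 to 89302332, reverse strand) the arrangement was the other way round. There were 8 members downstream, at 3311 to 89885 bp, and 1 upstream, at 17855 bp, on either side of a broad site over the promoter. The member at 3311 bp ended 282 bp from that site and was the 1 of the 9 with a CpG island. Foxi2 (chromosome 7, 135410308 to 135413622, forward strand) had 6 members upstream, at 19424 to 57174 bp, of which the 4 farthest were separated from the next listed site by 303 to 325 bp. Zfp536 (chromosome 7, 37472135 to 37773641, reverse strand) is long, and its 12 members divided into 6 beyond the 5′ end, at 15025 to 91464 bp from the TSS there, and 6 beyond the 3′ end, whose distances of 40311 to 96944 bp are to the TSS of an internal transcript.

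**Figure D4:**
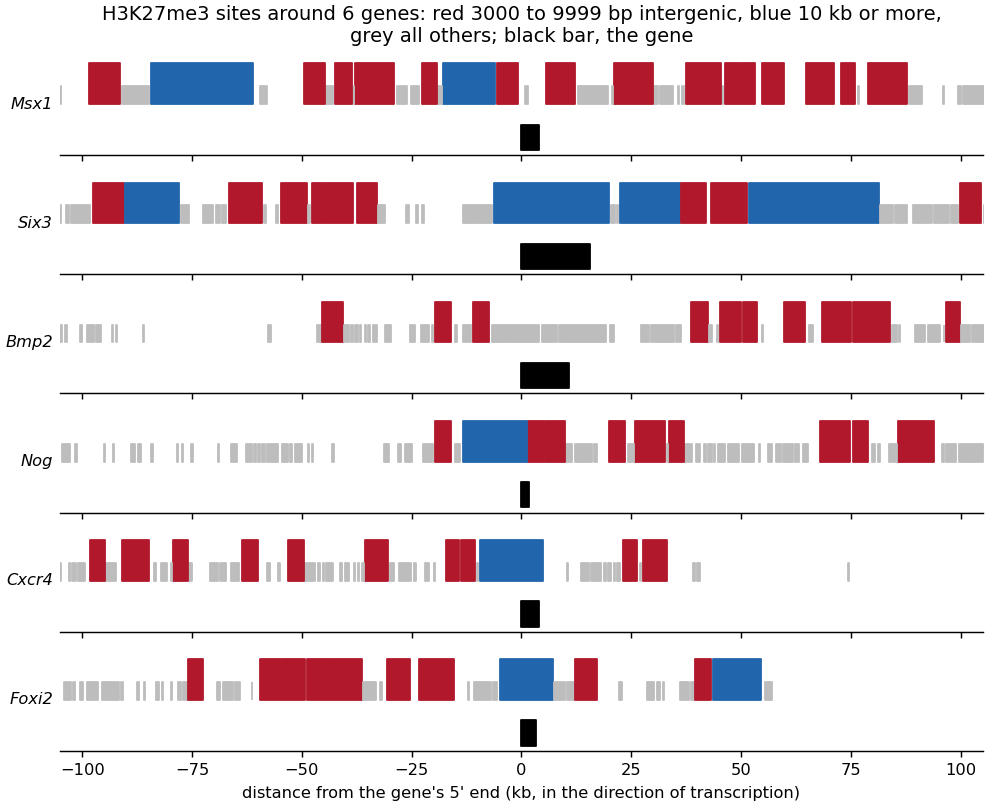
Listed sites within about 100 kb of the 5′ end of 6 genes (x axis, kb in the direction of transcription; 1 row per gene): mid-width intergenic sites by the rule (red), sites of 10 kb or more (blue), all other sites (low grey bars) and the gene (black). Red sites lie on both sides of each gene, and Bmp2 is the only 1 of the 6 with no blue site in view. Red sites nearest to a neighbouring gene are drawn too.

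The 10 widest members, 9923 to 9998 bp, included those nearest to Synm, Allc, 9430015G10Rik, Chil1, Smim13, Lhx2, Kdm8, Phc1 and Megf11. Of the 10, 9 lay upstream of the gene and 1 downstream. A promoter site was listed at the nearest gene of 4 of the 10, among them Synm, an intermediate filament gene, Lhx2, a LIM homeobox gene, and Megf11. None of the 10 overlapped a CpG island, and GC content ran from 43.6% to 49.6%.

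Among 9 lists of genes by symbol, those of developmental regulators were nearest to a larger share of members than of narrower sites. Homeobox genes were nearest to 140 members, 3.82% (3.25 to 4.49), against 2.54% of narrower sites (2.36 to 2.73) and 1.59% of eligible positions, and 59 of 180 homeobox genes (32.8%) had a member. Other developmental transcription factors had 138 members, 3.76% (3.20 to 4.43), against 2.59% and 2.06%, at 62 of 195 genes. Secreted signalling proteins and their antagonists had 75, 2.05% (1.64 to 2.56), against 1.38% and 1.24%, at 34 of 151 genes. These shares were not highest in the members. Homeobox genes were nearest to 7.78% of mid-width sites over 100 kb from a protein-coding TSS and to 10.62% of broad intergenic sites, and other developmental transcription factors to 6.82% and 3.76%. Signalling genes were nearest to 1.08% and 2.12%. The promoter share of these members was 90.0%, 84.1% and 89.3% in the 3 lists, beside 60.1% of all members. A broad site was within 10 kb of 50.0%, 37.0% and 30.7% of them, beside 24.3%.

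In the homeobox list Msx1 (56143 bp in 9) and Six3, a forebrain and eye regulator (39930 bp in 7), were among the genes with the largest summed width of members. Foxi2 (44074 bp in 8), Foxb1 (40995 bp in 6) and Foxd1 (38074 bp in 6), all forkhead genes, led the other transcription factors. Bmp2 (47009 bp in 10), Nog (43848 bp in 9) and Wnt4 (28640 bp in 5), which are ligands or an antagonist of ligands, led the signalling list. All 8 genes had a promoter site, and at 4 of them (Six3, Foxi2, Foxb1 and Nog) it was a broad one.

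In the other lists, apart from keratins and chemosensory receptors, the values of members and narrower sites had overlapping intervals. Ion channels and neurotransmitter receptors were nearest to 2.48% of members, narrower sites 2.41% and positions 2.02%, with 95.6% of the 91 members at a gene with a promoter site and 47.3% within 10 kb of a broad site. Adrb1 and Adra2c, both adrenergic receptor genes, and Kcng1, a potassium channel subunit gene, led that list. Solute carriers gave 2.48%, 2.27% and 2.01%, led by Slc2a10, Slc4a3 and Slc34a2. Extracellular matrix genes gave 0.87%, 0.98% and 0.89%, led by Mmp2, Adamts2 and Col6a5. Keratins and epidermal genes gave 0.55% (0.35 to 0.84), 0.26% (0.21 to 0.33) and 0.37%, on 20 members, led by Krt76, Krt24 and Krt10. The list of ribosome, proteasome and respiratory chain genes, used in every cell, also holds the translation initiation factor gene Eif3d. It gave 1.15%, 1.12% and 0.86%, led by Rps24, Eif3d and Ndufb6, and 7 of its 42 members (16.7%) were at a gene with a promoter site.

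Chemosensory receptors, a family of 1505 genes in clusters, were nearest to 24 members, 0.65% (0.44 to 0.97), against 1.52% of narrower sites (1.38 to 1.67) and 5.48% of eligible positions. Only 22 of the 1505 genes (1.46%) had a member, and 22 of the 24 members (91.7%) were at a receptor gene with a promoter site. The leading ones were Tas1r2, a taste receptor gene with 2 members, Olfr1414 with 2 and Olfr1394 with 1. Of 10 fibroblast genes looked up as markers of the cell type, 1 (Pdgfra) had a listed site within 1 kb of a TSS. Of 9 neuronal genes on these chromosomes 8 had one. The share over all genes with a protein-coding transcript was 25.98%, and with so few markers the fibroblast count is not told apart from it.

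**Figure D5:**
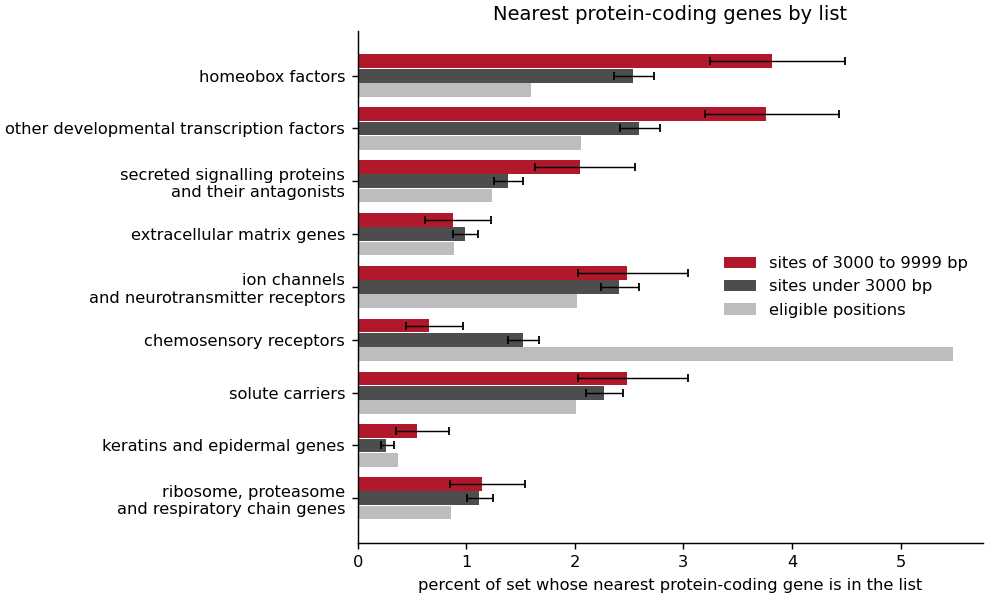
Percent of each set whose nearest protein-coding gene is in a list (x axis) for 9 lists (y axis): mid-width intergenic sites (red), narrower intergenic sites (dark grey) and eligible positions (light grey), with 95% Wilson intervals for the sites. The red bars are longest for homeobox genes (3.82%) and other developmental transcription factors (3.76%), and the light bar stands far out for chemosensory receptors (5.48%).

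The base composition of members was richer in GC than the DNA around them. Median GC content was 46.9% (46.8 to 47.0), against 42.5% in windows of 4486 bp at eligible positions, and it was above the positions on 19 of 19 chromosomes. In the 5 kb on either side, counting only bases outside listed sites, 3602 members had enough flank to compare. Their flanks had a median of 43.6%, and the member was the higher one in 3122 (86.7%), by a median of 3.37 percentage points. Repeats marked in the reference took up a median of 22.4% of a member and 35.1% of a flank, and 2966 members (82.3%) had the lower share. Reads in repeats are hard to place, and their part in this difference was not tested.

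Against sites of other widths the picture was mixed. Narrower sites had a median GC content of 47.7%, higher than members on all but 1 of 19 chromosomes, and a repeat share of 18.5%, lower than members on 19 of 19. The ratio of observed to expected CpGs, which is 1 when CpGs are as frequent as the C and G content allows, had a median of 0.190 in members (0.189 to 0.192), 0.170 in narrower sites, 0.203 in broad intergenic sites and 0.169 at eligible positions. A CpG island was overlapped by 84 members, 2.29% (1.85 to 2.83), against 0.237% of narrower sites and 23.7% of broad intergenic ones. A wider site has more room to touch an island. At the same width the share was 1.67% far from protein-coding genes and 3.19% in genes. Within 1 kb of a broad site it was 5.33%, and in the other distance classes it ran from 1.48% to 2.22%.

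Short motifs were rare at the members. The letters AGNNGGCGC, a core of the CTCF motif, occurred on either strand in 0.873% of the 7332 windows of 300 bases at the ends of members (0.684 to 1.11), in 1.01% of the 3666 windows at their centres and in 0.751% of windows at eligible positions. CTCF binds at domain boundaries in many tissues. TNCAGCACC, the left part of the RE1 element bound by the neuronal repressor REST, occurred in 1.95% of end windows (1.66 to 2.29), 1.53% of central windows and 1.18% of windows at positions. Overlap between matches of the 2 motifs was not examined. At mid-width sites in genes the end windows gave 1.06% and 1.795%.

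Members were spread unevenly over the chromosomes. Per eligible Mb there were 7.40 over all, from 2.94 on chromosome 3 to 11.998 on chromosome 11. Across the 19 chromosomes the number of members per eligible Mb went with the number of broad sites per eligible Mb (Pearson r = 0.909, Spearman rho = 0.865), a description in which both counts come from the same list and share the gene density and mappability of the chromosome. The median distance to a broad site ran from 16440 bp on chromosome 19 to 240102 bp on chromosome 10, and the share within 10 kb of one from 14.1% on chromosome 8 to 38.3% on chromosome 19.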

How the data were processed

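H3K27me3 and input ChIP-seq libraries (12) were made by the authors from NG3 iMEF cells. Per the labels and the study's methods, reads were trimmed with Trim Galore and aligned with BWA to mm10, replicates were merged, and broad peaks were called with MACS2. Versions, cutoffs and the rule that joined the groups into 1 list are not given in the sources used here. The deposited list gives the chromosome, start and end of each site and no counts, so the reads behind each site are not known from it and no group test could be run. A list of changed sites that the study names was not analysed here. Starts were read as 0-based, since the smallest difference of end and start is 200. The autosomal sequence of GRCm38.p6 (RefSeq, the build of the list) and GENCODE M21 were used with Python 3.11.15, pandas 2.3.3 and numpy 2.4.6. Broad meant 10000 bp or more. CpG islands had at least 200 bp, 50% GC and a ratio of 0.6. Shares carry 95% Wilson intervals and medians order-statistic intervals. Eligible positions lay every 1 kb, and windows around them had the median width of members.

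Genes named were the nearest genes of the 10 widest members, the 10 genes with the most members and, per list, the 3 with the largest summed member width. The members, lists and markers were chosen with earlier results of these data known. Some items that the rule selected are not reported here. Scripts were tested on simulated positions with known answers.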

Additional observations from a re-analysis of the deposited data

How the results depend on the processing

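Lowering the width limit to 2000 bp gave 6130 members, and raising it to 4000 bp 2299. With the lower limit, the promoter share was 57.7%, the median distance to a broad site 82850 bp, the share within 10 kb of one 20.5%, GC content 46.8% and the island share 1.75%. With the higher limit, the distance to a broad site was 43440 bp, the share within 10 kb 27.2%, the gap to the nearest site 399 bp and the island share 3.001%. When sites less than 1000 bp apart were joined first, which by construction turns chains into wider sites, the TSS distance was 26809 bp, the promoter share 49.3%, the distance to a broad site 38440 bp, the share within 10 kb 26.96%, the gap to the nearest site 2031 bp, GC content 45.8%, the CpG ratio 0.186, the island share 1.71% and the repeat share 23.8%. A limit of 50 kb to the TSS gave 16924 bp, 73.4% upstream, a promoter share of 62.0%, 47623 bp to a broad site, 26.6% within 10 kb and repeats of 23.7%. Counting as broad only sites of 20000 bp or more gave 635044.5 bp and 7.01% within 10 kb. A promoter window of 3 kb gave 70.4%. Leaving out members within 10 kb of a broad site, an alternative chosen after seeing the data like the eligible positions and the flanks, gave a promoter share of 55.0%. The island share was 1.81% for sites that overlap no gene and 3.15% when non-coding genes were ignored. Assigning each member to both flanking genes gave 6.90% for homeobox genes, 6.63% for other transcription factors and 3.57% for signalling genes, where narrower sites gave 4.86%, 5.14% and 2.81%. Solute carriers gave 4.09% against 4.22%, and ribosome, proteasome and respiratory chain genes 1.64% against 1.93%. In these lists members were the higher by nearest gene alone. Matrix genes gave 1.53% against 2.05%, chemosensory receptors 1.01% against 2.13%, channels and neurotransmitter receptors 4.83% against 4.43%, and keratins 0.60% against 0.39%. Without chromosome 11 there were 3357 members, and the 10 values with an interval stayed within it. Where a value moved, the cause was not tested beyond what the construction shows. No paired analysis was possible because the list holds no library values, and for the same reason no fit of untreated against treated cells, by any tool or without a replicate, was run.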
